A study of Mus musculus with 12 samples.

Results

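The mRNAs of 6 genes were followed: Plxnb2, Mbnl1, Rbl1, Rbl2 and E2f7, which have been reported as targets of the RNA-binding protein TRIM71, and Mbnl2, the paralog of Mbnl1, taken as a contrast. They were chosen by gene symbol from 20529 genes listed in the deposited table, each matched 1 row, and all 6 were among the 20486 genes tested. Stranded total RNA libraries were made from mouse embryonic stem cells, the pluripotent cells of the early embryo, here of strain 129S6/SvEvTac. The 12 libraries form 4 groups of 3: Tnrc6a Trim71-/-, with Tnrc6a overexpressed in Trim71 knockout cells, Tnrc6a Ctrl, with Tnrc6a overexpressed in control cells, Cas9 Trim71-/-, with Cas9 in knockout cells, and Cas9 Ctrl, with Cas9 in control cells. Per the labels, all 4 groups share the reporter GFP_5xT71BS and a stably transfected construct of FLAG-Cas9 with a blasticidin resistance marker. The triplicates are wells of a dish, and no label says that they are separate lines, so each group may be 1 line and p-values measure the spread between wells.

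TRIM71 (LIN-41 in worms) is a TRIM-NHL protein of early embryos and stem cells whose NHL domain binds small hairpins in 3' UTRs and lowers the bound mRNAs. Tnrc6a, also called GW182, is the scaffold that Argonaute proteins use to recruit deadenylases to mRNAs paired with a microRNA. By its title the series asks whether separate silencing pathways converge on GW182 proteins, and the comparison of interest here is whether excess Tnrc6a alters how far each target is raised in the knockout.

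Some facts of the whole series touch every result. Total counts per library were 24303863 to 26467426 in Tnrc6a Trim71-/-, 26022893 to 28372422 in Tnrc6a Ctrl, 23215587 to 31552915 in Cas9 Trim71-/- and 20758151 to 27320667 in Cas9 Ctrl. A free-text input line names other cells than the title does in 9 of the 12 libraries, namely HA-AVI-Tnrc6a, Ago2-/- or Upf1-/- cells. The labels thus conflict on the cells used for most libraries, and here the title and the overexpression tag set the group. Tnrc6a RNA was 25.1-fold higher with the Tnrc6a construct than with Cas9 in Ctrl cells (log2 4.65, SE 0.04, edgeR adjusted p = 8.37e-48), which matches that tag. Trim71 RNA was 264.1 to 291.2 CPM (counts scaled to library size) in Cas9 Trim71-/- and 290.1 to 317.2 CPM in Cas9 Ctrl. These overlap, though Trim71 was called slightly lower in the knockout (log2 -0.15, SE 0.04, edgeR adjusted p = 0.00282). With Tnrc6a the log2 difference was -0.14 (SE 0.04, edgeR adjusted p = 0.00758), without overlap. So small a difference does not mark the genotype, which therefore rests on the titles and the names of the deposited columns. Markers of embryonic stem cells summed to 4861.2 to 4956.9 CPM in Tnrc6a Trim71-/-, 3314.3 to 3350.8 CPM in Tnrc6a Ctrl, 6534.7 to 6619.8 CPM in Cas9 Trim71-/- and 5620.6 to 5684.2 CPM in Cas9 Ctrl. Endoderm markers, of which 7 of 8 were listed and Afp was not, were lower in Trim71-/- for all 7 in both genotype comparisons. They summed to 22 to 26.5 CPM in Tnrc6a Trim71-/-, 173.1 to 179.9 CPM in Tnrc6a Ctrl, 11.1 to 13.4 CPM in Cas9 Trim71-/- and 74.1 to 79 CPM in Cas9 Ctrl. Trophoblast markers, 5 of 6 listed, summed to at most 108.5 CPM in Tnrc6a Trim71-/-, 243.3 CPM in Tnrc6a Ctrl, 28.4 CPM in Cas9 Trim71-/- and 25.8 CPM in Cas9 Ctrl. The 5 neural markers summed to 193.2 to 199.1 CPM in Tnrc6a Trim71-/- and 149.4 to 152.5 CPM in Tnrc6a Ctrl. Their sums were 159.6 to 175 CPM in Cas9 Trim71-/- and 137 to 139.4 CPM in Cas9 Ctrl. Fibroblast markers, 4 of 7 listed, summed to at most 30.4 CPM in any group. The part of these cell types in the results was not tested, and in bulk RNA fewer cells of a type and less RNA per cell cannot be told apart.

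To show where each silencing route could touch these mRNAs, the longest annotated 3' UTR of each gene (GENCODE M21, GRCm38) was searched. The first set holds, for each of the 6 genes, a perfect hairpin of at least 5 Watson-Crick pairs around a loop of 3 bases, with the longest stem found in that UTR. Capitals mark the loop.
Plxnb2 hairpin: ggaggcATGgcctcc
Mbnl1 hairpin: atctagATCctagat
Mbnl2 hairpin: catatataTACtatatatg
Rbl1 hairpin: tgtgtagTATctacaca
Rbl2 hairpin: aagttacTAGgtaactt
E2f7 hairpin: attgtgAAGcacaat

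All 6 UTRs held such hairpins: 3 in the 732 bases of Plxnb2, 7 in the 3395 bases of Mbnl1, 9 in the 2748 bases of Mbnl2, 5 in the 1613 bases of Rbl1, 4 in the 1398 bases of Rbl2 and 6 in the 2546 bases of E2f7. The longest stem, of 8 pairs, was in Mbnl2, against 7 in Rbl1 and Rbl2 and 6 in Plxnb2, Mbnl1 and E2f7. Some hairpins in Mbnl2 overlap each other, and Rbl1 and E2f7 each have at least 1 other with as long a stem as the one shown. The density was 4.1 per kb in Plxnb2, 2.06 in Mbnl1, 3.28 in Mbnl2, 3.1 in Rbl1, 2.86 in Rbl2 and 2.36 in E2f7. Of 14512 annotated 3' UTRs, 73.7% held at least 1, as did 94.3% of the 7780 UTRs of at least 1000 bases, whose median density was 1.56 per kb. The densities of the 6 all lay above that median, but Plxnb2, with 732 bases, is not among the UTRs it was taken over. Overlapping hairpins were counted separately in all UTRs. A hairpin of this kind is common to most UTRs. It is a match of letters, not a shown binding site.

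The second set holds the microRNA families that are abundant in embryonic stem cells or rise as they differentiate, with the seed (bases 2 to 8) in capitals. The mature sequences are from RefSeq (GRCm38.p6).
mmu-miR-291a-3p: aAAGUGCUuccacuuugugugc
mmu-miR-17-5p: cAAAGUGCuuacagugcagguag
mmu-let-7a-5p: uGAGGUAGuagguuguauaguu

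The seed of miR-291a-3p is shared by the miR-290 and miR-302 family, and its match is AGCACTT. The matches for the miR-17 and let-7 families are GCACTTT and CTACCTC. The UTR strand was searched for these letters, and the first and the second match can overlap, since both hold GCACTT. The matches in these UTRs are given in capitals within their surroundings.
Rbl1, miR-290 and miR-302: tgcctgatcaaAGCACTTttggattgttc
Rbl2, miR-290 and miR-302: tttttcaataaAGCACTTataaatta
Rbl2, miR-17, first: tgtaattggtgGCACTTTatggctgtaag
Rbl2, miR-17, second: tatttatgatgGCACTTTctatggtgtga
E2f7, miR-290 and miR-302: cggggttgcctAGCACTTaaccagggtaa
E2f7, let-7: gaggggatgtgCTACCTCaaaccatgcca
Mbnl2, miR-290 and miR-302: caggctataacAGCACTTcacagaactat

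Rbl1 also held a miR-17 match, 1 base further on and overlapping the one shown. Plxnb2 and Mbnl1 held no match for any of the 3 families. Among UTRs of at least 1000 bases, 26.7% held the miR-290 and miR-302 match, 21.8% the miR-17 match and 15.9% the let-7 match. Over all 14512 UTRs the shares were 16.6%, 13.6% and 10.3%. Levels of the microRNAs themselves were not analysed here.

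Per length, Plxnb2 was the most abundant of the 6, with a mean of 17.7 RPKM (reads per kilobase of gene length, scaled to library size, as deposited) over the 12 libraries, above 79.9% of the genes tested. Rbl1 averaged 5.31 RPKM, Mbnl2 4.42, E2f7 4.15, Rbl2 1.5 and Mbnl1 1.01 RPKM, and Mbnl1 stood at the 27.5th percentile. Plxnb2 came first, Mbnl1 last and Rbl2 just above it in each of the 4 groups. The places between them changed: Mbnl2 stood second in Tnrc6a Ctrl, at 6.34 ± 0.556 RPKM (SD, n = 3), and below Rbl1 and E2f7 in Cas9 Trim71-/-, at 2.72 ± 0.334 RPKM. Neighbours in the order overlapped between libraries for E2f7 and Rbl1 in Tnrc6a Ctrl, and for Rbl1 and E2f7 and for E2f7 and Mbnl2 in Cas9 Ctrl.

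**Figure D1:**
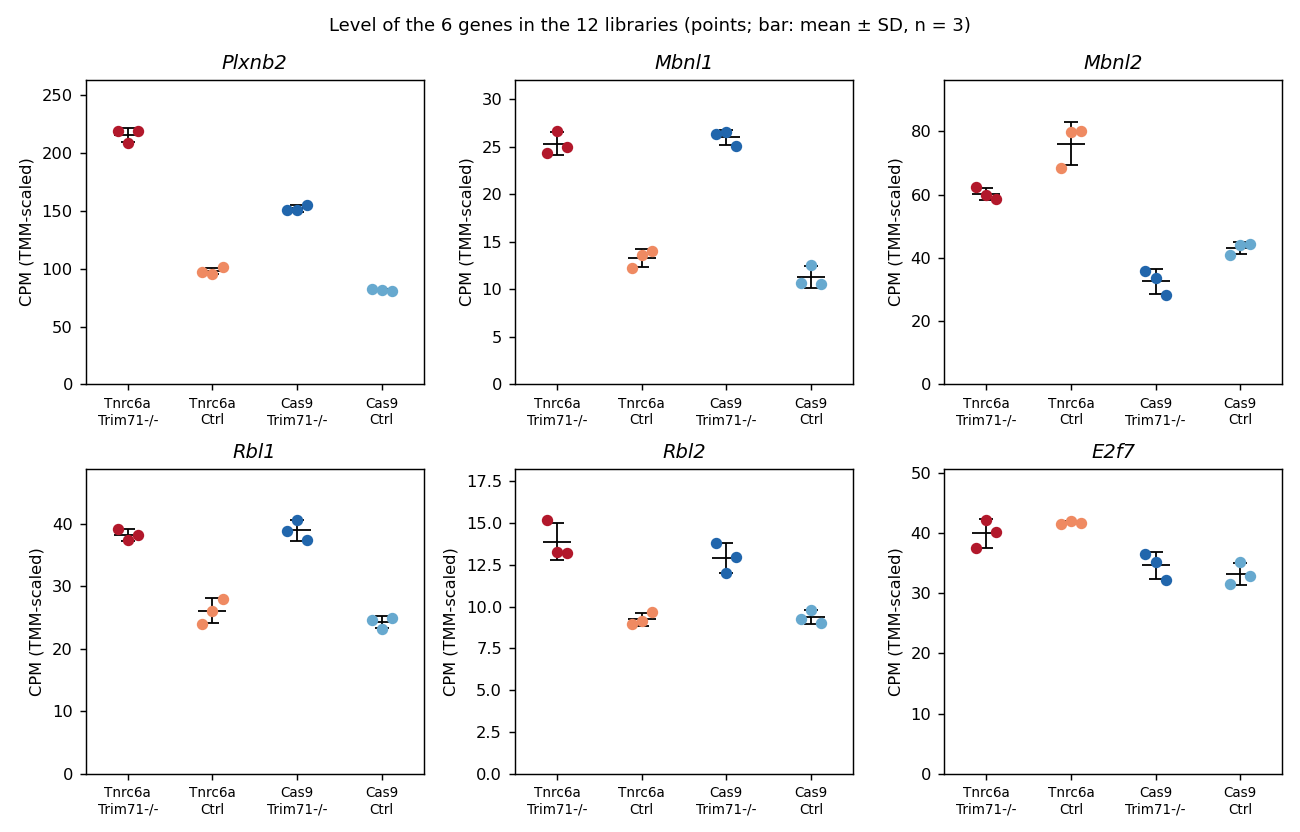
CPM of each of the 6 genes (vertical axes, each starting at 0) in the 12 libraries by group, with points for libraries and bars for the mean and SD of 3. Plxnb2 stands highest in Tnrc6a Trim71-/- (208.6 to 219.7 CPM), Mbnl2 highest in Tnrc6a Ctrl (68.4 to 80.3 CPM), and the 4 groups of E2f7 lie between 31.6 and 42.2 CPM.

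Plxnb2 encodes plexin-B2, a transmembrane receptor for class 4 semaphorins. The gene lies on the minus strand of chr15:89155549-89180788 (GRCm38). It had 219.7, 208.6 and 219.3 CPM in Tnrc6a Trim71-/-, against 97.2, 95.9 and 101.5 CPM in Tnrc6a Ctrl. It had 150.6, 150.7 and 155.5 CPM in Cas9 Trim71-/-, against 82.3, 81.3 and 80.7 CPM in Cas9 Ctrl. All knockout libraries lay above all control libraries, and the 3 with both changes lay above every other library. Plxnb2 was 2.2-fold higher in the knockout with Tnrc6a (log2 1.14, SE 0.04, edgeR quasi-likelihood test with Benjamini-Hochberg adjusted p = 2.41e-26). With Cas9 it was 1.87-fold higher (log2 0.90, SE 0.04, edgeR adjusted p = 6.23e-22).

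Mbnl1 and Mbnl2 encode muscleblind proteins, which bind RNA and control alternative splicing during differentiation. Mbnl1 lies on the plus strand of chr3:60472830-60629750. It had 24.3, 26.7 and 25 CPM in Tnrc6a Trim71-/-, against 12.2, 13.6 and 14.0 CPM in Tnrc6a Ctrl. It had 26.3, 26.5 and 25.1 CPM in Cas9 Trim71-/-, against 10.7, 12.6 and 10.6 CPM in Cas9 Ctrl. The 6 knockout libraries share 1 narrow range, all above the 6 control libraries. Mbnl1 rose 1.91-fold with Tnrc6a (log2 0.93, SE 0.08, edgeR adjusted p = 1.2e-13). With Cas9 it had the largest rise of the 6 genes, at 2.31-fold (log2 1.21, SE 0.08, edgeR adjusted p = 2.87e-16).

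Mbnl2, on the plus strand of chr14:120275669-120431697, did the opposite. It had 62.4, 59.9 and 58.7 CPM in Tnrc6a Trim71-/-, against 68.4, 79.7 and 80.3 CPM in Tnrc6a Ctrl. It had 35.9, 33.8 and 28.2 CPM in Cas9 Trim71-/-, against 40.9, 44.1 and 44.4 CPM in Cas9 Ctrl. Knockout libraries lay below control libraries with either construct, and Tnrc6a libraries above Cas9 libraries. Among Tnrc6a cells, Mbnl2 fell by 0.33 on the log2 scale in the knockout (SE 0.06, edgeR adjusted p = 9.58e-05). Among Cas9 cells it was 1.31-fold lower in the knockout (log2 -0.39, SE 0.07, edgeR adjusted p = 6e-05). An exon of the antisense gene Gm26679 overlaps Mbnl2. Whether the authors counted by strand is not given in the sources used here, and without it reads of the pair cannot be told apart.

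The 2 muscleblind mRNAs thus changed their proportion with genotype and with Tnrc6a. The RPKM ratio of Mbnl1 to Mbnl2 was 0.269 ± 0.0187 in Tnrc6a Trim71-/- and 0.112 ± 0.00236 in Tnrc6a Ctrl (SD, n = 3 each). It was 0.514 ± 0.0521 in Cas9 Trim71-/- and 0.168 ± 0.0152 in Cas9 Ctrl (SD, n = 3 each). The ratio's 3 values in each knockout group lay above those of its control group.

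**Figure D2:**
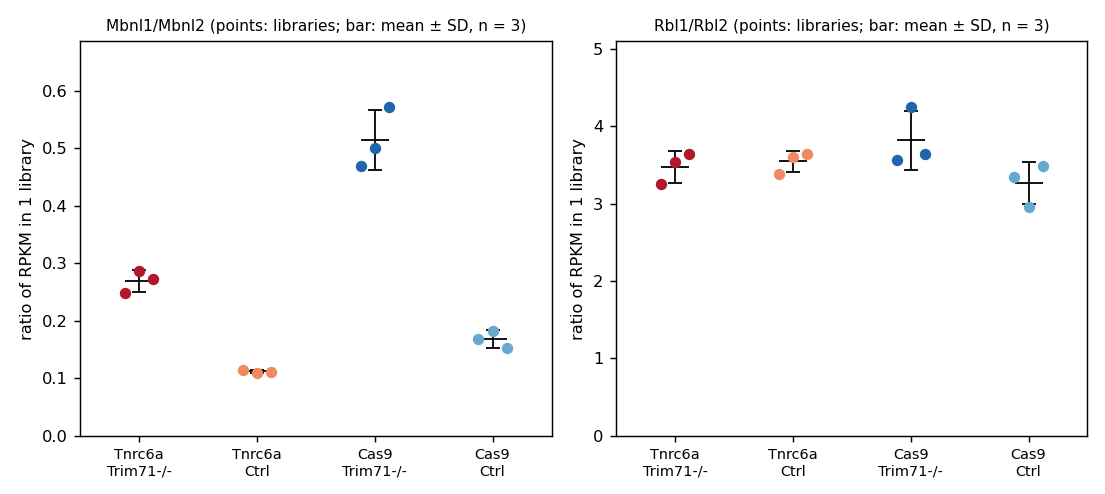
Ratio of deposited RPKM values, Mbnl1 over Mbnl2 (left) and Rbl1 over Rbl2 (right), in each library by group, with points for libraries and bars for the mean and SD of 3. The Mbnl1 to Mbnl2 ratio separates Trim71-/- from Ctrl with both constructs (means of 0.514 against 0.168 with Cas9). The Rbl1 to Rbl2 ratio lies between 2.96 and 4.25, and separates Trim71-/- from Ctrl with Cas9 but not with Tnrc6a.

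Rbl1 (p107) and Rbl2 (p130) are pocket proteins, relatives of the retinoblastoma protein that bind repressive E2F factors and hold cell cycle genes down as parts of the DREAM complex. Rbl1, on the minus strand of chr2:157145893-157204534, had 39.2, 37.3 and 38.1 CPM in Tnrc6a Trim71-/-, against 24.0, 26.1 and 28 CPM in Tnrc6a Ctrl. It had 38.8, 40.6 and 37.3 CPM in Cas9 Trim71-/-, against 24.6, 23.1 and 24.9 CPM in Cas9 Ctrl. The knockout libraries lay between 37.3 and 40.6 CPM whichever construct they carried, and all were above the control libraries. Rbl1 rose 1.47-fold with Tnrc6a (log2 0.55, SE 0.06, edgeR adjusted p = 6.17e-10) and 1.61-fold with Cas9 (log2 0.68, SE 0.06, edgeR adjusted p = 5.67e-12).

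Rbl2, on the plus strand of chr8:91070057-91123844, had 15.2, 13.3 and 13.2 CPM in Tnrc6a Trim71-/-, against 8.94, 9.13 and 9.69 CPM in Tnrc6a Ctrl. It had 13.8, 12 and 13 CPM in Cas9 Trim71-/-, against 9.26, 9.82 and 9 CPM in Cas9 Ctrl. These groups did not overlap either. Rbl2 rose 1.5-fold with Tnrc6a (log2 0.59, SE 0.09, edgeR adjusted p = 1.21e-06) and 1.39-fold with Cas9 (log2 0.47, SE 0.10, edgeR adjusted p = 0.000107). Its exons overlap those of Aktip and Gm45464 on the other strand, from which its reads cannot be told apart without strand. The RPKM ratio of Rbl1 to Rbl2 was 3.48 ± 0.206 in Tnrc6a Trim71-/- and 3.55 ± 0.136 in Tnrc6a Ctrl (SD, n = 3 each), with overlap. It was 3.82 ± 0.38 in Cas9 Trim71-/- and 3.27 ± 0.27 in Cas9 Ctrl (SD, n = 3 each), without overlap.

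Chromosome 8 as a whole was higher in the knockout libraries, and the value of Rbl2 lay at the middle of its chromosome. The 664 chromosome 8 genes that averaged 5 CPM or more had a median log2 difference between knockout and control of 0.52 in Tnrc6a cells, with quartiles of 0.32 and 0.65. In Cas9 cells the median was 0.49, with quartiles of 0.31 and 0.63. Rbl2 differed from that median by 0.07 with Tnrc6a, at the 64.5th percentile of the chromosome, and by -0.02 with Cas9, at the 45.8th percentile. When the fit was scaled and run on chromosome 8 genes alone, the log2 difference of Rbl2 was 0.09 in Tnrc6a cells (edgeR adjusted p = 0.427, SE 0.09) and 0.01 in Cas9 cells (edgeR adjusted p = 0.974, SE 0.10), so it no longer passed the test. The log2 level of Rbl2 minus that of its chromosome averaged 0.11 ± 0.11 in Tnrc6a Trim71-/- and 0.05 ± 0.06 in Tnrc6a Ctrl (SD, n = 3 each). It averaged -0.03 ± 0.08 in Cas9 Trim71-/- and 0 ± 0.06 in Cas9 Ctrl (SD, n = 3 each). The libraries overlapped in both genotype comparisons, and 3 against 3 allows no exact permutation p under 0.1. The part of the chromosome 8 difference, or of the line, in the values of the other members was not tested.

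The other 5 members lie on chromosomes whose medians were between -0.04 and 0.02 in the genotype comparisons. Among them Mbnl1, Plxnb2 and Rbl1 stood near the upper end of their chromosome's range. Mbnl1 stood at the 99.7th percentile of chromosome 3 with Tnrc6a and the 100th with Cas9. Plxnb2 stood at the 99.4th percentile of chromosome 15 with Tnrc6a and the 99.2nd with Cas9. Rbl1 stood at the 97.7th percentile of chromosome 2 with Tnrc6a and the 99.1st with Cas9. Mbnl2 was at the 9.07th percentile of chromosome 14 with Tnrc6a and the 9.98th with Cas9. E2f7 stood in the middle of chromosome 10, at the 39.9th percentile with Tnrc6a and the 61.8th with Cas9.

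**Figure D3:**
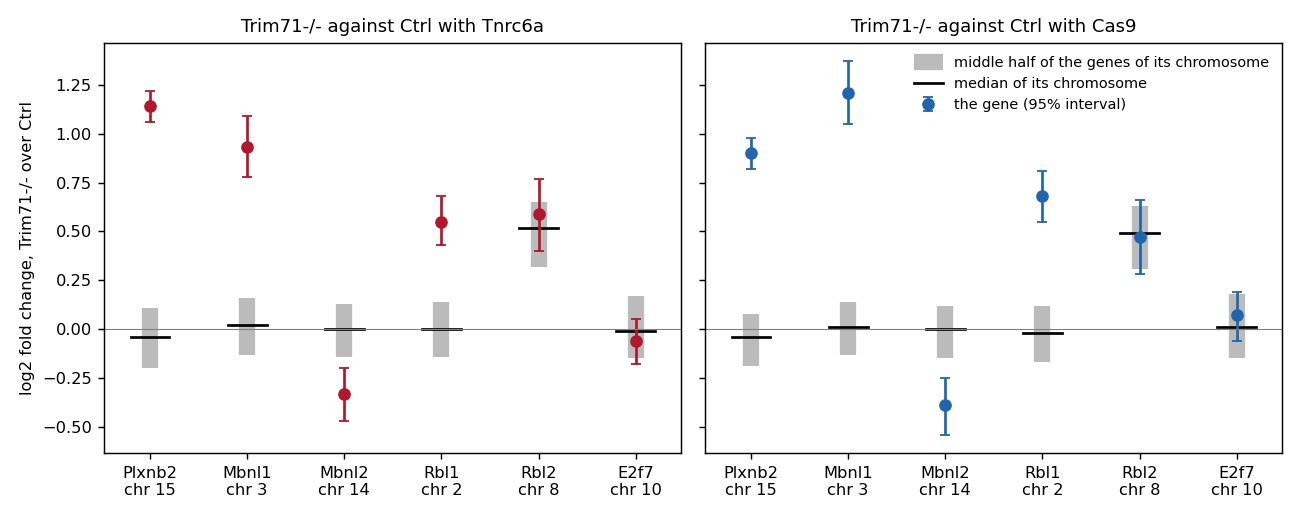
Log2 difference of Trim71-/- against Ctrl for each gene (points) with its 95% interval, beside the median (black line) and quartiles (grey bar) of the genes of its own chromosome that averaged 5 CPM or more, with Tnrc6a (left) and with Cas9 (right). Rbl2 lies near the median of chromosome 8 (0.52 with Tnrc6a, 0.49 with Cas9), while Mbnl1, Plxnb2 and Rbl1 lie far above chromosome medians near 0.

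E2f7 encodes an atypical E2F that represses E2F target genes without a DP partner, and it lies on the plus strand of chr10:110745439-110787384. It had 37.5, 42.2 and 40.1 CPM in Tnrc6a Trim71-/-, against 41.5, 42.0 and 41.7 CPM in Tnrc6a Ctrl. It had 36.5, 35.2 and 32.2 CPM in Cas9 Trim71-/-, against 31.6, 35.2 and 32.9 CPM in Cas9 Ctrl. Knockout and control libraries overlapped with both constructs. The log2 difference was -0.06 with Tnrc6a (95% interval -0.18 to 0.05, edgeR adjusted p = 0.427) and 0.07 with Cas9 (95% interval -0.06 to 0.19, edgeR adjusted p = 0.447). For these wells, the intervals allow at most a 1.04-fold rise with Tnrc6a and a 1.14-fold rise with Cas9. They hold no spread between lines. The antisense gene 1700020G17Rik overlaps an exon of E2f7.

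In the genotype comparison with Tnrc6a, 4 of the 6 genes were called higher, against 20.0% of all genes tested, and 1, Mbnl2, lower, against 19.0% (39.1% in either direction). In 5 of the 6 the libraries did not overlap, against 49.4% of all genes. With Cas9 the same 4 were called higher, against 17.1% of all genes, and Mbnl2 lower, against 19.1% (36.1% in either direction). Again 5 did not overlap, against 43.3%. The median log2 difference of the 6 was 0.57 with Tnrc6a and 0.58 with Cas9, beside medians of 0 and -0.01 over all genes. The 6 genes, and the gene lists below, were chosen with earlier results of these data known. Their counts therefore describe them and are no test of whether reported targets are raised. The counts and medians include Mbnl2, the contrast, and Rbl2. On chromosome 8 genes alone Rbl2 did not pass, at 0.09 with Tnrc6a (edgeR adjusted p = 0.427) and 0.01 with Cas9 (edgeR adjusted p = 0.974).

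The difference between Tnrc6a and Cas9 cells of the same genotype varied from gene to gene, in comparisons that use the same libraries as those above. In Trim71-/- cells, Tnrc6a excess was accompanied by higher Mbnl2, Plxnb2 and E2f7, which makes 3 of the 6, against 32.0% of all genes called higher, 62.9% called in either direction and 65.7% without overlap. Mbnl2 rose 1.84-fold (log2 0.88, SE 0.07, edgeR adjusted p = 4.48e-12) and Plxnb2 1.42-fold (log2 0.50, SE 0.04, edgeR adjusted p = 5.74e-15). E2f7 rose 1.15-fold (log2 0.20, SE 0.06, edgeR adjusted p = 0.00329), a call lost without Tnrc6a Trim71-/- replicate 2 (edgeR adjusted p = 0.0563). Mbnl1, Rbl1 and Rbl2 did not pass the test, with log2 differences of -0.04, -0.03 and 0.10 and adjusted p (edgeR) of 0.668, 0.713 and 0.32. Their 95% intervals on the fold ran over 0.88 to 1.08, 0.902 to 1.07 and 0.947 to 1.22.

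In Ctrl cells, 4 of the 6 were called higher, against 30.4% of all genes tested, and none lower, against 33.1% (63.5% in either direction). In 3 of them the libraries did not overlap, against 67.4%. Mbnl2 rose most, 1.77-fold (log2 0.82, SE 0.07, edgeR adjusted p = 7.67e-12). E2f7 rose 1.26-fold (log2 0.33, SE 0.06, edgeR adjusted p = 6.6e-06) and Plxnb2 1.21-fold (log2 0.27, SE 0.04, edgeR adjusted p = 2.79e-07). Mbnl1 passed the test at a log2 difference of 0.24 (SE 0.09, edgeR adjusted p = 0.0155) although its libraries overlapped, and without Tnrc6a Ctrl replicate 3, Cas9 Ctrl replicate 1 or Cas9 Ctrl replicate 3 the adjusted p was 0.0764, 0.0744 or 0.084. Rbl1 had a log2 difference of 0.10 (95% interval on the fold 0.981 to 1.18, edgeR adjusted p = 0.165), which passed at 0.18 without Tnrc6a Ctrl replicate 1 (edgeR adjusted p = 0.0259). Rbl2 had one of -0.01 (95% interval on the fold 0.864 to 1.14, edgeR adjusted p = 0.923). The median of the 6 was 0.15 in Trim71-/- and 0.25 in Ctrl cells, beside 0.02 and -0.02 over all genes.

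Set beside the UTR matches, the genes with a miR-290 and miR-302 match did not move as 1 group with Tnrc6a. Mbnl2 and E2f7 hold such a match and rose in both genotypes. Rbl1 and Rbl2 hold one as well and passed the test in neither, and of the 2 genes with no match, Plxnb2 rose in both and Mbnl1 was called higher in Ctrl cells and did not pass in Trim71-/- cells. These are counts of few genes and carry no test.

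Whether the genotype difference was alike in Tnrc6a and Cas9 cells was tested by the interaction, the genotype difference with Tnrc6a minus that with Cas9. Since each group may be 1 line, its p-values and intervals measure the spread between wells. Tnrc6a excess and line cannot be told apart by it. Of the 6 genes, Plxnb2 alone passed, against 6.93% of all genes called in either direction and 4.68% called higher. Its rise was 0.23 larger on the log2 scale with Tnrc6a (SE 0.06, 95% interval 0.12 to 0.35, edgeR adjusted p = 0.00592), which is a factor of 1.18. Without Tnrc6a Ctrl replicate 1 the value was 0.19 (edgeR adjusted p = 0.06) and without Tnrc6a Ctrl replicate 2 it was 0.18 (edgeR adjusted p = 0.0826), so the call rests on both of these libraries. Over all genes the interaction calls were 958 higher and 461 lower, and with relative log expression factors 768 higher and 613 lower.

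For the other members the interaction did not pass after adjustment over all genes. Mbnl1 had the largest of these, -0.28 (SE 0.11, 95% interval -0.5 to -0.05, edgeR adjusted p = 0.149), the direction of a smaller rise with Tnrc6a. Rbl1 stood at -0.13 (95% interval -0.31 to 0.05), Rbl2 at 0.12 (-0.15 to 0.38), E2f7 at -0.13 (-0.3 to 0.04) and Mbnl2 at 0.06 (-0.14 to 0.26). In terms of fold, the intervals allow the rise of Rbl1 with Tnrc6a to be 0.806 to 1.03 times its rise with Cas9. For Rbl2 they allow 0.899 to 1.31 times, and both count the spread between wells only. The median interaction of the 6 was -0.03, beside 0.02 over all genes.

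**Figure D4:**
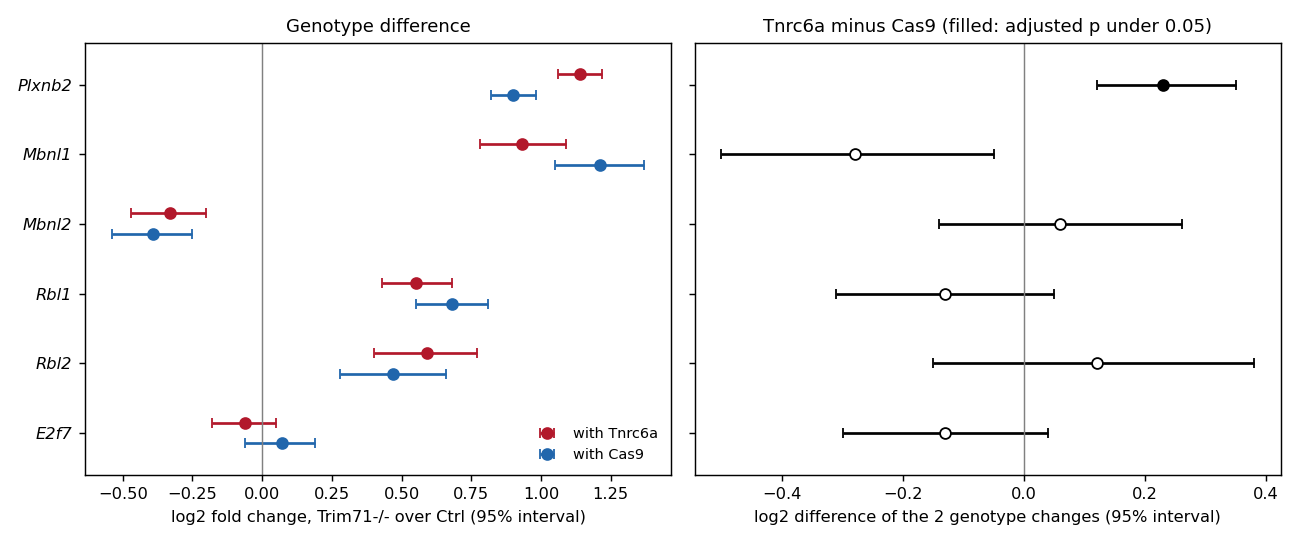
Left, log2 difference of Trim71-/- against Ctrl with its 95% interval (edgeR) for each gene, with Tnrc6a and with Cas9. Right, the interaction, which is the difference with Tnrc6a minus that with Cas9, with its 95% interval and filled points for an adjusted p under 0.05. Plxnb2 rises more with Tnrc6a (1.14) than with Cas9 (0.90) and has the only filled point, at 0.23, while E2f7 spans 0 in both genotype comparisons.

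The genes most like each member were taken by the Pearson correlation of log2 CPM over the 12 libraries among 10770 other genes that averaged 5 CPM or more. The libraries fall into 4 groups, so these coefficients describe shared group patterns and carry no p. Plxnb2 was closest to Cdh3 (r = 0.998), Nqo1 (0.996) and Mt1 (0.994), all 3 on chromosome 8. Mbnl1 was closest to Csnk2a2 (0.992), on chromosome 8, Cdc40 (0.991) and Snx3 (0.991), and Snx3 was also first for Rbl1 (0.988). Rbl2 was closest to Alg11 (0.981), on chromosome 8 too, Mbnl2 to Pxn (0.989) and Dyrk1a (0.989), and E2f7 to Tstd2 (0.968).

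Of 5 further genes reported as acted on by TRIM71, 4 were lower in Cas9 Trim71-/- than in Cas9 Ctrl, against 19.1% of all genes. That is the direction opposite to Plxnb2, Mbnl1 and Rbl1. The fifth, Ago2, did not pass (log2 -0.3, SE 0.1, edgeR adjusted p = 0.0523). Whether TRIM71 acts on the mRNAs of these 5 was not tested. The weakest of the 4 calls was that of Cdkn1a (log2 -0.15, SE 0.06, edgeR adjusted p = 0.041), which was lost under several alternatives. Egr1, an immediate early transcription factor, had 17.4 ± 1.79 CPM in Tnrc6a Trim71-/- and 19.8 ± 1.8 CPM in Tnrc6a Ctrl (SD, n = 3 each). It had 18.1 ± 0.611 CPM in Cas9 Trim71-/- and 73.9 ± 8.67 CPM in Cas9 Ctrl (SD, n = 3 each). Low Egr1 was thus common to the 3 groups with either change, and its interaction was 1.84 (SE 0.12, edgeR adjusted p = 9.58e-13). The EGR co-repressors Nab1 and Nab2 were lower in the knockout with both constructs. Nab1 had log2 differences of -0.46 with Tnrc6a and -0.96 with Cas9, and Nab2 of -0.27 with Tnrc6a and -1.26 with Cas9, with interactions of 0.50 for Nab1 and 0.98 for Nab2. Cdkn1a (p21), a CDK inhibitor, had 102.7 ± 4.56 CPM in Tnrc6a Trim71-/- and 29.6 ± 2 CPM in Cas9 Trim71-/-, a rise of 3.48-fold with Tnrc6a (log2 1.80, SE 0.05, edgeR adjusted p = 2.15e-29). In Ctrl cells Cdkn1a had 90.8 ± 2.58 CPM with Tnrc6a and 32.8 ± 1.26 CPM with Cas9, a rise of 2.78-fold (log2 1.47, SE 0.05, edgeR adjusted p = 1.52e-26). With Tnrc6a, 1 of the 5 was higher in the knockout (Cdkn1a), against 20.0% of all genes, and 2 were lower, against 19.0%.

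Among 16 other pocket protein, E2F and DREAM genes, 6 were higher and 2 lower in the knockout with Tnrc6a, against 20.0% and 19.0% of all genes. With Cas9, 7 were higher and 5 lower, against 17.1% and 19.1%. E2f4 (log2 0.61, SE 0.04) and Tfdp1 (log2 0.60, SE 0.04) led the rises with Cas9, and both lie on chromosome 8, where the median was 0.49 and the upper quartile 0.63. E2f1, an activator E2F, was lower (log2 -0.51, SE 0.05, edgeR adjusted p = 2.32e-10). E2f8, the other atypical E2F, fell by 1.07 with Tnrc6a in Ctrl cells (log2 -1.07, SE 0.06, edgeR adjusted p = 5.07e-20), where E2f7 rose. With Tnrc6a in Trim71-/- cells, 6 of the 16 were higher and 10 lower, against 32.0% and 30.9% of all genes. In Ctrl cells 5 were higher and 10 lower, against 30.4% and 33.1%. Rb1, the third pocket protein, was among the higher ones in both (log2 0.83 in Trim71-/- and 0.66 in Ctrl cells), while Rbl1 and Rbl2 did not pass.

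Of 23 measured plexins, semaphorins and partners (24 listed), 5 were higher and 7 lower in the knockout with Tnrc6a, against 20.0% and 19.0% of all genes. With Cas9, 5 were higher and 5 lower, against 17.1% and 19.1%. Relatives of Plxnb2 moved in both directions. Plxnb1, another class B plexin, fell with Tnrc6a in Trim71-/- cells (log2 -0.39, SE 0.07) and in Ctrl cells (log2 -0.56, SE 0.07), and Plxnd1 fell in the knockout with Cas9 (log2 -1.03, SE 0.23, edgeR adjusted p = 0.00029). With Tnrc6a, Plxnd1 rose in Trim71-/- cells (log2 1.19, SE 0.22) and in Ctrl cells (log2 0.67, SE 0.18), as Plxnb2 did. The coreceptor Nrp2 rose 2.58-fold with Tnrc6a in Trim71-/- cells (log2 1.37, SE 0.09, edgeR adjusted p = 5.64e-17). With Tnrc6a, 15 of the 23 were higher and 4 lower in Trim71-/- cells, where 32.0% and 30.9% of all genes were, and 11 were higher and 6 lower in Ctrl cells, against 30.4% and 33.1%.

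Of 15 measured splicing regulators beside Mbnl1 and Mbnl2 (16 listed), 1 was higher and 3 lower in the knockout with Tnrc6a, against 20.0% and 19.0% of all genes. With Cas9, 3 were higher and 4 lower, against 17.1% and 19.1%. The higher one in both was Mbnl3, the X-linked muscleblind gene, which rose 1.6-fold with Tnrc6a (log2 0.68, SE 0.13, edgeR adjusted p = 2.56e-05) and 1.59-fold with Cas9 (log2 0.67, SE 0.14, edgeR adjusted p = 0.000233). In these genotype comparisons Mbnl3 changed in the direction of Mbnl1 and not of Mbnl2. With Tnrc6a it rose in Trim71-/- cells (log2 0.47, SE 0.13, edgeR adjusted p = 0.00127) and in Ctrl cells (log2 0.46, edgeR adjusted p = 0.00511), as Mbnl2 did. It averaged 4.86 CPM over the 12 libraries. With Tnrc6a, 4 of the 15 were higher and 6 lower in Trim71-/- cells, against 32.0% and 30.9% of all genes, and 7 were higher and 7 lower in Ctrl cells, against 30.4% and 33.1%.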

How the data were processed

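Raw counts of genes, as deposited by the authors, were tested. The authors also deposited RPKM values, per a gene length they gave, whose library constant was 0.935 to 1.08 of the library's total. Per the submitters' processing notes they used bcl2fastq 2.20, STAR 2.7.3a and GRCm38 (mm10). The counting tool's strand setting is not given in the sources used here. Genes were filtered (filterByExpr), scaled by TMM factors (trimmed mean of M values), then fitted in edgeR 4.0.16 (glmQLFit, robust, 1 mean per group, all 12 libraries, R 4.3.3). Tests were two-sided, adjusted by Benjamini-Hochberg over 20486 genes at 0.05. CPM use TMM factors. Depth per library is given with the results, and reads carry no molecular identifiers.

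The members and the gene lists were chosen with earlier results of these data known. Named list genes are up to 4 per sign and comparison by size among those called with a mean of at least 1 CPM, and text names a part of them. Replicates differed beyond sampling noise (chi-square over degrees of freedom 2.48 to 7.46). Same-numbered libraries did not deviate together (r from -0.116 to 0.145), so the replicate number was not a block. Alternatives were limma 3.58.1 (voom, and on log2(RPKM + 0.1)), DESeq2 1.42.0, other factors and filters, chromosome-restricted fits, 2-group fits, a replicate block and each library left out. The pipeline was tested on simulated data in which few genes changed and all genes shared the same spread. These data differ in both, so that test does not check the scaling or the calls here.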

Additional observations from a re-analysis of the deposited data

Results flagged for a closer look

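Each gene here had a genotype difference that differed between Tnrc6a and Cas9 cells by the edgeR interaction test, given on the log2 scale as the difference with Tnrc6a minus that with Cas9. Plxnb2 had 0.23 (SE 0.06, adjusted p = 0.00592), a call that is lost without either of 2 Tnrc6a Ctrl libraries.

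Egr1 had 1.84, Nab2 0.98, Nab1 0.50 and Cdkn1a 0.32, which makes 4 of the 5 further TRIM71-related genes, against 4.68% of all genes called higher and 6.93% called in either direction. Among plexins and partners, Nrp2 had 0.71, Plxna2 0.60 and Rnd3 0.35. Among splicing regulators, Esrp2 had -0.69, Esrp1 -0.64 and Rbm38 -0.24. Among cell cycle genes, Cdk1 had -0.30, Ccne2 -0.28 and E2f3 0.20. The adjusted p (edgeR) was 0.0494 for E2f3, 0.0439 for Ccne2 and 0.0387 for Esrp1, close to the threshold.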

How the results depend on the processing

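Of 30 results on the 6 genes, 21 kept direction and call under every alternative run. For Rbl2 with Tnrc6a in Ctrl cells (-0.01), the sign turned to 0.03 (relative log expression), 0.02 (upper quartile), 0.02 (at least 1 CPM in 6 libraries), 0.03 (DESeq2), 0.01 (only the 2 groups) and 0.02 (own chromosome), with -0.05 to 0.04 over left-out libraries. Rbl1 with Tnrc6a in Trim71-/- cells (-0.03) gave 0 with upper-quartile factors and -0.05 to 0 over left-out libraries. None of these values passed a test. On log2(RPKM + 0.1), Mbnl1 with Tnrc6a in Ctrl cells was 0.20 (limma adjusted p = 0.111), and left-out libraries gave 0.19 to 0.32. On chromosome 8 genes alone, Rbl2 in the knockout was 0.09 with Tnrc6a and 0.01 with Cas9. Left-out libraries gave 0.15 to 0.25 for E2f7 with Tnrc6a in Trim71-/- cells, 0.05 to 0.18 for Rbl1 with Tnrc6a in Ctrl cells, -0.05 to 0.14 for the Mbnl2 interaction and 0.18 to 0.26 for that of Plxnb2 (edgeR adjusted p 0.00231 to 0.0826), so 0 to 1 of the 6 was called there. Interaction calls over all genes were 1419, and 812 on log2(RPKM + 0.1), with 516 higher and 296 lower, and 1059 to 1403 over left-out libraries, with 543 to 949 higher. The cause was not tested. The replicate block changed no call on the 6 genes (Plxnb2 interaction 0.23, edgeR adjusted p = 0.00875), and interaction calls over all genes were 1335 with it. Of 2369 repeats for list genes, 2276 kept their call, 93 lost it and 0 reversed. Rbl2, with 194 to 422 counts per library, has the widest intervals of the 6.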

Other observations

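The genes that E2F factors switch on for replication and division moved with Tnrc6a more often downward than upward. Of 24 such genes, 18 were lower and 3 higher with Tnrc6a in Trim71-/- cells, beside 30.9% lower and 32.0% higher over all genes. In Ctrl cells 14 were lower and 4 higher, beside 33.1% and 30.4%. Their median log2 difference was -0.23 in both genotypes, against 0.02 in Trim71-/- and -0.02 in Ctrl cells over all genes. All 24 averaged at least 38.8 CPM, while all genes include many weaker ones. Genes that averaged 5 CPM or more on the chromosomes of the 6 members had medians of -0.11 to -0.03 in Trim71-/- and -0.12 to -0.06 in Ctrl cells. The part of expression level in these counts was not tested. Pola1, the catalytic subunit of DNA polymerase alpha, fell in Ctrl cells (log2 -0.75, SE 0.05, edgeR adjusted p = 2.45e-18), as did the helicase subunit gene Mcm6 (log2 -0.62, SE 0.04, edgeR adjusted p = 2.66e-19). Ccne2, which encodes a G1/S cyclin, went against them, 2.77-fold higher with Tnrc6a in Ctrl cells (log2 1.47, SE 0.06, edgeR adjusted p = 1.26e-23), and the related Ccne1 was lower (log2 -0.59, SE 0.04, edgeR adjusted p = 3.04e-16).

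In the knockout, 9 of the 24 were higher and 5 lower with Tnrc6a, against 20.0% and 19.0% of all genes, and 10 were higher and 3 lower with Cas9, against 17.1% and 19.1%. Mcm5 led the rises in both (log2 0.57 with Tnrc6a and 0.59 with Cas9, SE 0.03 each) and lies on chromosome 8, whose medians were 0.52 and 0.49. Ccne1 led the falls, by 0.93 with Cas9 (log2 -0.93, SE 0.04, edgeR adjusted p = 6.57e-22). The part of chromosome 8 and of the cell type markers in these counts was not tested.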
